A study of Homo sapiens with 24 samples.

Results

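The genes described here are 30 factors of homologous recombination and of the Fanconi anemia pathway, chosen by name, with no measured value in the rule. Each was matched by its gene symbol in all 4 deposited tables, and all 30, of 58174 genes listed, were found in every table. They comprise 7 genes of the BRCA1 complex and of end resection, 5 of strand pairing, the 5 paralogs RAD51B, RAD51C, RAD51D, XRCC2 and XRCC3, 7 of the Fanconi core complex with its ligase, FANCD2 and FANCI, and 4 checkpoint kinases.

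Homologous recombination repairs a DNA double-strand break by copying the intact sister chromatid, so it works in S and G2 phase. The break ends are first resected to single strands, BRCA2 and its partners then prepare them to pair with the template, and helicases resolve the joined molecules. The Fanconi pathway removes crosslinks between the DNA strands: a core complex attaches ubiquitin to FANCD2 and FANCI, and this marks the lesion for cutting and for repair by recombination. Both pathways are known as tumor suppressors and as determinants of the response of tumors to platinum drugs and PARP inhibitors.

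Total RNA depleted of ribosomal RNA was sequenced from A549 (lung cancer), ES2 (ovarian cancer), MV3 (melanoma) and PANC1 (pancreatic cancer) cells, grown in DMEM with serum. In each line, cells transfected with control siRNA (siC) were compared with cells given a pool of siRNAs directed at IGF2BP1 (siI1), an oncofetal RNA-binding protein of many tumors, to ask which transcripts depend on it. Each of the 8 groups had 3 libraries, described in the methods as biological replicates. A549, ES2 and MV3 were harvested 72 h after transfection and PANC1 after 96 h, so line and time cannot be told apart for PANC1, and each tumor type is represented by 1 line.

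IGF2BP1 itself was lower in every siI1 library: 15.2 to 16.4 against 39.6 to 39.8 FPKM in A549, 4.03 to 4.22 against 12.1 to 14 in ES2, 2.77 to 3.02 against 9.06 to 9.64 in MV3, and 2.71 to 2.87 against 11 to 11.3 in PANC1. FPKM are read counts scaled to gene length and to library size. A549 libraries held 3105215 to 4553326 assigned reads, ES2 libraries 6421764 to 8419467, MV3 libraries 15572492 to 20082702 and PANC1 libraries 6532175 to 8472851. Of the epithelial keratins, KRT8 was at 235 FPKM or more in A549 and PANC1 and at most 13.8 FPKM in ES2. KRT7 went otherwise, with 146 FPKM or more in A549, 100 to 160 FPKM in ES2 and 1.83 to 3.59 FPKM in PANC1. KRT18 was at 34.5 to 49.4 FPKM in ES2, beside 52.3 FPKM or more in A549. The melanocyte markers SOX10, TYR and S100B were at 0 in all MV3 libraries and MITF did not exceed 0.337 FPKM, and in ES2 the ovarian markers PAX8 and WT1 did not exceed 0.262 and 0.151 FPKM. NKX2-1 and SFTPB, markers of lung epithelium, were at 0 in A549. PDX1, a pancreatic factor, was at 1.46 to 2.22 FPKM in PANC1 and at most 0.124 FPKM elsewhere. The other pancreatic markers searched, SOX9 and MUC1, did not set PANC1 apart. SOX9 was at 16.9 to 20.3 FPKM in PANC1 and 14.7 to 23.3 FPKM in ES2. MUC1 was at 0.247 to 1.12 FPKM in PANC1 and 0.665 to 1.22 FPKM in MV3. The leukocyte markers PTPRC and CD3E did not exceed 0.0332 FPKM anywhere. The fibroblast marker COL1A1 was at 17.3 to 25.8 FPKM with siI1 against 2.77 to 4.35 FPKM with siC in ES2, and at 4.84 to 5.41 against 1.16 to 1.30 FPKM in MV3, while COL1A2 did not exceed 0.0249 FPKM in any library.

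Since many S phase genes are controlled by E2F factors, the promoters of the repair genes were searched for the E2F words TTTCCCGC, TTTCGCGC, TTTGCCGC and TTTGGCGC on both strands. RefSeq promoters of 300 bases (GRCh38.p14, 250 before and 50 after the start) were matched for 27 of the 30 genes; FANCI, NBN and RAD54B had no entry. A word was held by 5 of the 27 promoters (18.5%), against 703 of 15843 promoters of protein-coding genes (4.44%) and 10 of 19 promoters of the cell cycle genes described further on (52.6%). Of the other pathway genes and the end-joining genes, also described further on, 6 of 45 (13.3%) and 1 of 11 promoters (9.09%) held one. The windows of 30 bases around these matches are shown. Of the 5 genes 4 fell on average over the lines, as did 18 of all 27. They read 5′ to 3′ on the strand of the gene, with the matched word or its reverse complement in capitals.
EXO1, chr1:241848197-241848226, plus strand: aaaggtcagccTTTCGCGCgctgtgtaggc
FANCA, chr16:89816801-89816830, minus strand: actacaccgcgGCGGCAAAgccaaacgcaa
FANCD2, chr3:10026424-10026453, plus strand: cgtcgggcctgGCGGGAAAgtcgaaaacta
XRCC2, chr7:152676102-152676131, minus strand: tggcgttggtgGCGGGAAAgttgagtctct
FANCC, chr9:95317863-95317892, minus strand: ccggggcttccGCGCGAAAccgggaacact
The FANCD2 and XRCC2 windows carry the same word, and the EXO1 and FANCC windows share another. FANCC, which held 2 matches of which 1 is printed, did not pass the test on average. Among genes that fell on average, 4 of 18 promoters held a word (22.2%), against 1 of 9 of those not called (11.1%). These counts are small, and the difference was not tested. The cell cycle words TTTGAA or TTCGAA were in 3 of the 27 promoters (11.1%, against 13.5% of protein-coding promoters), and CCAAT was in 12 (44.4%, against 36.4%). A match is a string of letters and says nothing on binding.

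All 30 genes were expressed in all 4 lines and passed the filter of a mean of 0.5 FPKM. In siC cells their median level lay at percentiles 51.9, 56.8, 52.5 and 48.0 of the protein-coding genes tested in A549, ES2, MV3 and PANC1. NBN, which recruits the MRE11 nuclease to breaks, was the highest of the 30 in every line, with 25.5 ± 1.25, 22.9 ± 0.776, 29.3 ± 0.618 and 19.2 ± 1.99 FPKM (mean ± SD, n = 3) in the order A549, ES2, MV3 and PANC1. FANCI followed at 25.4 ± 0.934 FPKM in A549, a level that overlapped that of NBN. The lowest were RAD54B in A549 (2.38 ± 0.286 FPKM), RAD51B in ES2 (2.12 ± 0.379 FPKM) and PANC1 (0.730 ± 0.238 FPKM), and FANCF in MV3 (2.50 ± 0.318 FPKM). RAD51C, of the paralog group, was listed at 1.08 ± 0.0876 FPKM in PANC1 beside 5.84 ± 0.223 in A549 and 6.07 ± 0.748 in ES2, but the tables were normalized separately and levels were not tested between lines. The least covered of the 30 rested on 16 reads in an A549 library and on 17 in a PANC1 library, against at least 71 in ES2 and 128 in MV3.

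**Figure D1:**
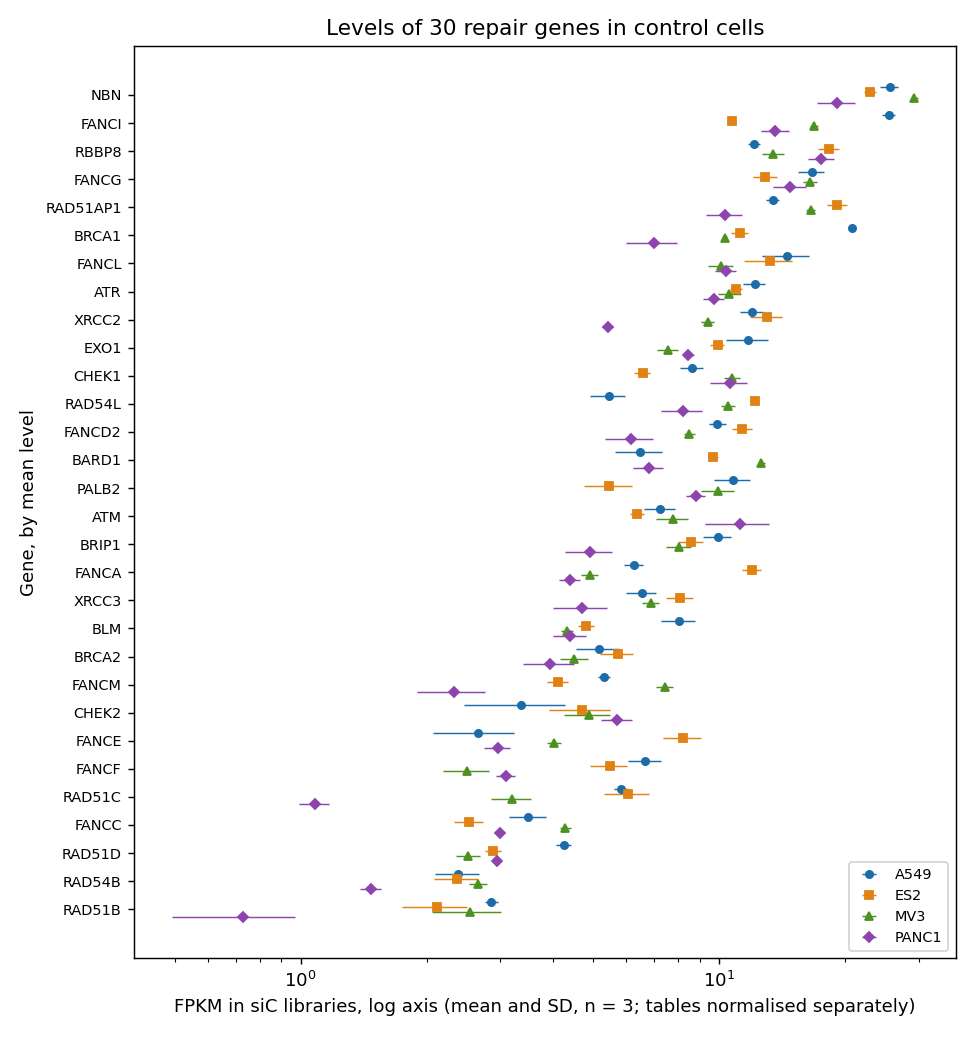
FPKM of the 30 repair genes in siC cells (x axis, log scale; mean and SD of 3 libraries), with a row per gene and a symbol per line. NBN is at the top in all 4 lines, and RAD51B in PANC1 is the lowest point, at 0.730 FPKM.

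After IGF2BP1 knockdown, 20 of the 30 genes fell and none rose on the average over the 4 lines, with RAD54L, BLM, EXO1, FANCD2, FANCA and FANCI lowest (-0.80 to -0.54 on the log2 scale). Most of these genes fell in MV3 and PANC1, whereas few did in A549 and ES2. Changes are given as log2 fold changes, siI1 against siC, of FPKM + 0.5, with p-values from limma adjusted over all genes tested by Benjamini-Hochberg and a threshold of 0.05. In a bulk sample, less RNA per cell and fewer cells that make it cannot be told apart.

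In the fit over all 24 libraries, 28.1% of the 12816 genes tested were lower on average and 20.5% were higher, beside 20 and 0 of the 30 repair genes. No repair gene was higher at an unadjusted p under 0.05 either, whereas limma voom on reads recovered from the FPKM values called 1 higher, the kinase ATM (0.10, adjusted p = 0.0356). The median average log2 fold change was -0.24 over the 30 and -0.03 over all genes tested. Of the 20 calls, 19 were kept under every alternative other than a minimum size of 0.5, which 6 of them passed, and that of RAD51B was lost in 5 of 24 omissions of 1 library (adjusted p = 0.0519 to 0.0598), namely of A549 siI1 replicate 3, ES2 siC replicate 2, ES2 siI1 replicate 3, MV3 siC replicate 3 or PANC1 siC replicate 3. The effect differed between lines for 20 of the 30 genes, against 45% of all genes tested.

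In MV3, 21 of the 30 genes fell and 0 rose, where 19.5% of all genes tested were lower and 16.3% higher. In PANC1, 16 fell and 0 rose, beside 13.4% lower and 11.3% higher overall. None rose at an unadjusted p under 0.05 in either line, and voom called 1 higher in MV3 and 0 in PANC1. ES2 had 6 genes lower and 2 higher, with 13% and 10.5% of all genes, and A549 had 4 lower and 1 higher, with 7.83% and 5.93%. The medians of the 30 were -0.40 in MV3 and -0.44 in PANC1, against -0.05 in A549 and -0.0008 in ES2, and the medians of all genes tested lay between -0.04 and 0.01. MV3 was sequenced most deeply and A549 least, and the part of depth in the counts was not tested. The lines also differed in how many changes could be called. In simulated data, 30%, 47%, 90% and 29% of genes changed by 0.5 were recovered in A549, ES2, MV3 and PANC1. Only 100 genes had this change there, all well above the filter in every line. These shares thus need not hold for genes near the filter, such as RAD51B in PANC1. Whichever single library of the line was left out, 3 or 4 genes were lower in ES2 and 1 to 3 in A549. With voom, A549 had 10 lower genes in place of 4, ES2 had 9, MV3 had 23 and PANC1 had 20, where voom called 12.4%, 16.6%, 23.3% and 16.3% of all genes lower. The falls that voom added in A549 were of BARD1, EXO1, FANCA, FANCD2, FANCG and XRCC3 (adjusted p = 0.00351 to 0.0289). In ES2 they were of FANCE, FANCG and XRCC2 (0.0312 to 0.0359). Voom also added rises, of ATR, CHEK2 and RAD51D in A549 and of ATR in ES2.

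Every siI1 library lay below every siC library for 22 of the 30 genes in MV3 (25.9% of all genes tested), 22 in PANC1 (23.8%), 10 in A549 (18.5%) and 9 in ES2 (22.6%). The opposite separation was seen for 5 genes in A549 (15.4% of all genes), 3 in ES2 (19.5%) and none in MV3 and PANC1. The genes lower in both MV3 and PANC1 numbered 14 of the 30, beside 8.91% of the genes tested in all lines. The lowest of the 4 log2 fold changes was in PANC1 for 22 genes and in MV3 for 8, some by less than the SE, as for BLM and RAD54L. This was not counted over all genes, so these counts have no background to be read against. In PANC1 these sizes depended on the scaling. When libraries were given the same sum of FPKM, the median of all genes tested there moved to -0.68 with 8870 lower and 96 higher genes, in place of 2131 and 1796, and that of the 30 moved to -1.06, which is -0.38 relative to all genes, beside -0.40 with the deposited scaling.

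**Figure D2:**
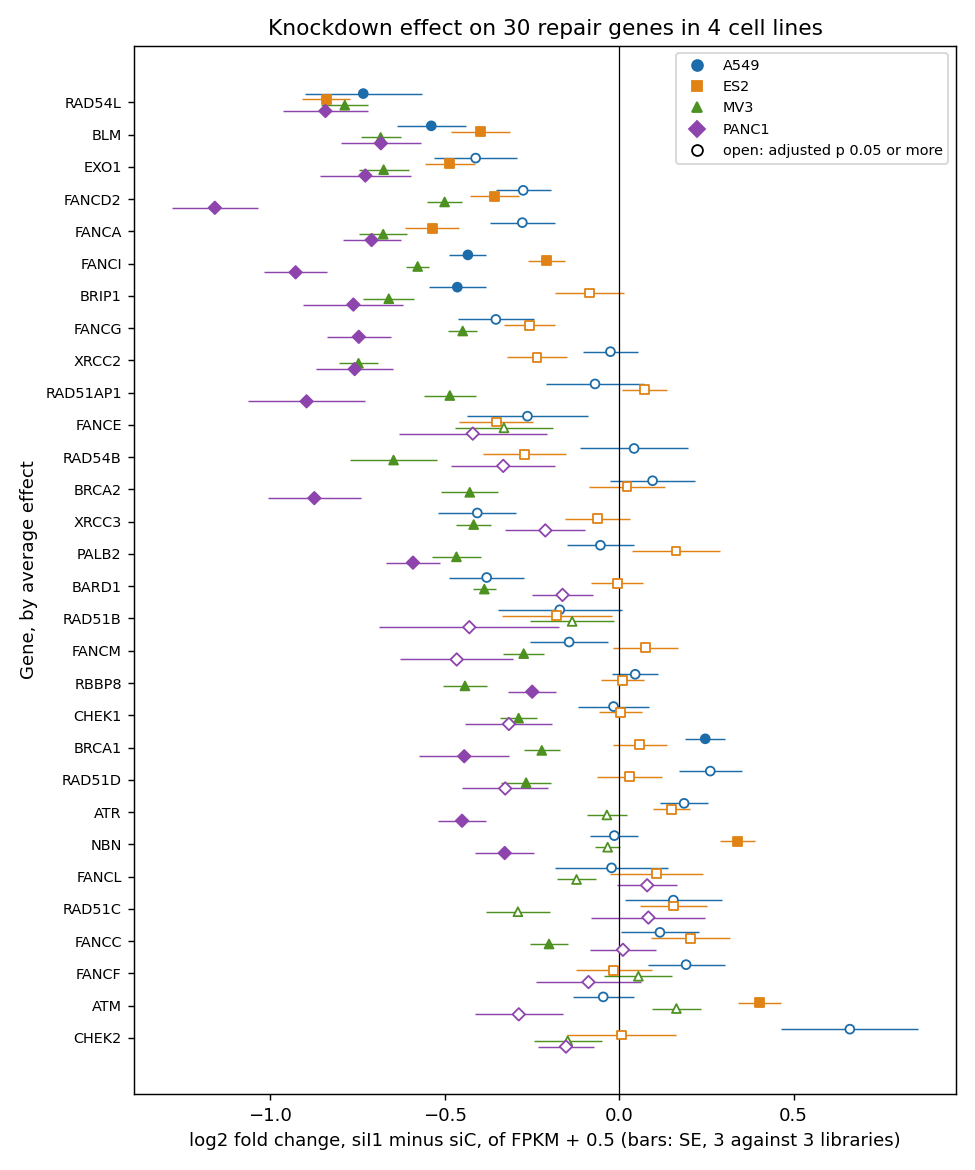
Log2 fold change, siI1 minus siC, of FPKM + 0.5 for each repair gene (rows, ordered by the average) in A549, ES2, MV3 and PANC1 (symbols; bars are SE from 3 against 3 libraries, filled where the adjusted p is under 0.05). RAD54L sits at -0.84 to -0.73 in all 4 lines, while for BRCA2 the points run from -0.87 in PANC1 to 0.10 in A549.

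RAD54L, BLM and FANCI were lower in all 4 lines, as 2.51% of all genes tested were. Adding EXO1, FANCD2, FANCA and BRIP1 gave 7 genes lower in at least 3 lines, beside 7.19% of all genes. With the replicate number as a block in the fit, RAD54L, BLM and FANCI each lost their call in A549, ES2 or both. RAD54L is a motor protein that helps pair the broken strand with its template (ENSG00000085999, chromosome 1, 46246461 to 46278480, plus strand, hg38). In A549, RAD54L was at 5.80, 4.85 and 5.68 FPKM with siC and 3.97, 2.74 and 2.64 FPKM with siI1. In ES2 it was at 12.5, 11.9 and 12.1 FPKM with siC and 7.09, 6.61 and 6.08 FPKM with siI1. No siI1 library of either line reached its siC libraries. In MV3, RAD54L was at 10.9, 10.1 and 10.5 FPKM with siC and 5.33, 6.22 and 6.17 FPKM with siI1. In PANC1 it was at 8.26, 7.24 and 9.08 FPKM with siC and 3.82, 4.24 and 5.0 FPKM with siI1. The groups did not overlap in any line, and the average was -0.80 (SE 0.059, adjusted p = 1.51e-09). Within lines, A549 had -0.73 (SE 0.17, adjusted p = 0.0365), ES2 had -0.84 (SE 0.069, adjusted p = 0.000745), MV3 had -0.79 (SE 0.067, adjusted p = 0.000457) and PANC1 had -0.84 (SE 0.12, adjusted p = 0.00515). No difference between lines was detected (adjusted p = 0.926). The call in A549 was lost when any library other than siI1 replicate 1 was left out (adjusted p = 0.077 to 0.133). RAD54L shares 19.9% of its exon bases with LRRC41 on the opposite strand, and LRRC41 was called in no line (-0.18 to 0.17).

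BLM, the helicase mutated in Bloom syndrome, takes part in resection and in resolving joined molecules (ENSG00000197299, chromosome 15, 90717346 to 90816166, plus strand). In A549, BLM was at 7.37, 7.82 and 8.81 FPKM with siC and 5.55, 4.93 and 5.56 FPKM with siI1. In ES2, BLM was at 4.63, 4.75 and 5.06 FPKM with siC and 3.86, 3.47 and 3.29 FPKM with siI1. Its siI1 libraries all lay below its siC libraries. In MV3, BLM was at 4.48, 4.28 and 4.23 FPKM with siC and 2.57, 2.40 and 2.57 FPKM with siI1. In PANC1, BLM was at 3.96, 4.70 and 4.56 FPKM with siC and 2.95, 2.39 and 2.36 FPKM with siI1. Again the groups were apart, and MV3 and PANC1 had nearly the same change. BLM averaged -0.58 (SE 0.042, adjusted p = 1.48e-09). A549 had -0.54 (adjusted p = 0.0185), ES2 -0.40 (adjusted p = 0.0191), MV3 -0.68 (adjusted p = 0.000445) and PANC1 -0.68 (adjusted p = 0.00827), and a difference between lines was not detected (adjusted p = 0.141). The A549 call was lost in 5 of 6 omissions, all but that of siC replicate 1 (adjusted p = 0.0534 to 0.0641), and the ES2 call without siC replicate 2 or 3 or siI1 replicate 2 or 3 (adjusted p = 0.0538 to 0.0679).

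EXO1, the exonuclease of long-range resection whose start carries the first window above, averaged -0.57 (SE 0.054, adjusted p = 3.98e-08) (ENSG00000174371, chromosome 1, 241847967 to 241895148, plus strand). In A549, EXO1 was at 11.3, 10.7 and 13.3 FPKM with siC and 8.71, 7.70 and 9.75 FPKM with siI1. In ES2, EXO1 was at 9.48, 10.2 and 10.1 FPKM with siC and 6.77, 7.54 and 6.55 FPKM with siI1. The A549 groups were apart but did not pass the test, -0.41 (adjusted p = 0.073), whereas voom gave -0.44 (adjusted p = 0.00351). In MV3, EXO1 was at 8.04, 7.44 and 7.19 FPKM with siC and 4.97, 4.24 and 4.44 FPKM with siI1. In PANC1, EXO1 was at 8.19, 8.49 and 8.69 FPKM with siC and 4.91, 5.94 and 4.03 FPKM with siI1. These 2 lines had the larger changes, -0.67 (adjusted p = 0.000919) and -0.73 (adjusted p = 0.0104), beside -0.48 (adjusted p = 0.00514) in ES2, and a difference between lines was not detected (adjusted p = 0.232).

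Of the other genes of the BRCA1 complex and of resection, BRIP1, a helicase that binds BRCA1, averaged -0.49 (SE 0.053, adjusted p = 2.71e-07). It fell in A549 (-0.46), MV3 (-0.66) and PANC1 (-0.76) and was at -0.08 (adjusted p = 0.593) in ES2. The A549 call of BRIP1 was lost without siI1 replicate 1 or 2 (adjusted p = 0.0502 and 0.0606). BARD1, the partner of BRCA1 in its ubiquitin ligase, averaged -0.23 (SE 0.038, adjusted p = 3.94e-05) and passed within a line only in MV3 (-0.39, adjusted p = 0.000457). RBBP8, also called CtIP, starts resection and averaged -0.16 (SE 0.031, adjusted p = 0.000292), with -0.44 (adjusted p = 0.00279) in MV3 and -0.25 (adjusted p = 0.0415) in PANC1. The PANC1 call of RBBP8 was lost in 5 of 6 omissions, all but that of siC replicate 2 (adjusted p = 0.0798 to 0.13). In all, 5 of the 7 genes of this group fell on average and none rose, the exceptions being BRCA1 and NBN. Of all genes tested, 28.1% fell on average and 20.5% rose.

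BRCA1 and NBN were the 2 genes called in opposite directions in different lines. BRCA1 promotes resection and brings PALB2 and BRCA2 to the break (ENSG00000012048, chromosome 17, 43044295 to 43170245, minus strand). In A549, BRCA1 was at 20.5, 20.9 and 20.9 FPKM with siC and 23.3, 25.9 and 25.1 FPKM with siI1. In ES2, BRCA1 was at 11.4, 10.6 and 11.6 FPKM with siC and 10.7, 12.7 and 11.8 FPKM with siI1. All A549 libraries with siI1 exceeded those with siC, and in ES2 the groups overlapped. In MV3, BRCA1 was at 10.2, 10.4 and 10.4 FPKM with siC and 9.37, 8.22 and 8.82 FPKM with siI1. In PANC1, BRCA1 was at 6.69, 6.18 and 8.06 FPKM with siC and 5.66, 4.36 and 4.96 FPKM with siI1. Here every siI1 library lay below the siC libraries. BRCA1 rose in A549, 0.25 (SE 0.057, adjusted p = 0.0385), and fell in MV3, -0.22 (SE 0.052, adjusted p = 0.0187), and PANC1, -0.44 (SE 0.13, adjusted p = 0.0493), with 0.06 (adjusted p = 0.639) in ES2 and a difference between lines (adjusted p = 0.000854). The average was -0.09 (SE 0.044, adjusted p = 0.101). Each of the 3 calls was near the threshold: the rise was lost in all omissions but that of siI1 replicate 1 (adjusted p = 0.081 to 0.107), the fall in MV3 without siC replicate 2 or siI1 replicate 3 (0.0554 and 0.0622), and that in PANC1 in all omissions but that of siC replicate 2 (0.0581 to 0.134). With the same sum of FPKM the A549 and MV3 calls of BRCA1 were lost (adjusted p = 0.0872 and 0.101), the MV3 call also with the same sum of FPKM times length (0.0854), and without the filter on low values the PANC1 calls of BRCA1 and NBN were lost (0.0987 and 0.0628).

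NBN averaged -0.0085 (SE 0.032, adjusted p = 0.849) (ENSG00000104320). In A549, NBN was at 24.9, 27 and 24.7 FPKM with siC and 26.1, 23.4 and 26.4 FPKM with siI1. In ES2, NBN was at 22.4, 22.6 and 23.8 FPKM with siC and 28.3, 28.6 and 30.6 FPKM with siI1. The A549 groups overlapped and those of ES2 were apart, with siI1 above. In MV3, NBN was at 29.2, 29.9 and 28.7 FPKM with siC and 28.2, 27.9 and 29.8 FPKM with siI1. In PANC1, NBN was at 19.6, 17 and 20.9 FPKM with siC and 15.7, 14.6 and 15.1 FPKM with siI1. The MV3 groups overlapped, and in PANC1 all siI1 libraries were below the siC libraries. NBN rose in ES2, 0.34 (SE 0.050, adjusted p = 0.00519), and fell in PANC1, -0.33 (SE 0.085, adjusted p = 0.0351), and the effect differed between lines (adjusted p = 9.33e-05). The fall in PANC1 was lost in all omissions but that of siC replicate 2 (adjusted p = 0.0773 to 0.113), whereas the rise in ES2 was kept in each omission.

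All 5 genes of strand pairing fell on average, beside 28.1% of all genes tested. After RAD54L these were RAD51AP1 (-0.34), RAD54B (-0.30), BRCA2 (-0.30) and PALB2 (-0.24). In MV3 all 5 fell, and in PANC1 all but RAD54B did, whereas in A549 and ES2 only RAD54L passed. The shares of all genes that fell were 19.5% in MV3, 13.4% in PANC1, 7.83% in A549 and 13% in ES2. BRCA2 acts on the resected single-stranded DNA (ENSG00000139618, chromosome 13, 32315086 to 32400268, plus strand). In A549, BRCA2 was at 4.52, 5.73 and 5.22 FPKM with siC and 5.44, 5.05 and 6.12 FPKM with siI1. In ES2, BRCA2 was at 5.43, 5.41 and 6.31 FPKM with siC and 5.39, 6.69 and 5.41 FPKM with siI1. Both pairs of groups overlapped. In MV3, BRCA2 was at 4.28, 4.34 and 4.91 FPKM with siC and 2.94, 3.26 and 3.48 FPKM with siI1. In PANC1, BRCA2 was at 3.63, 3.64 and 4.59 FPKM with siC and 1.74, 2.24 and 1.81 FPKM with siI1. There every siI1 library lay below the siC libraries. BRCA2 changed by -0.43 (SE 0.082, adjusted p = 0.00846) in MV3 and -0.87 (SE 0.13, adjusted p = 0.00612) in PANC1, against 0.10 (adjusted p = 0.669) in A549 and 0.02 (adjusted p = 0.91) in ES2. With a range of 0.97 over the lines, it differed between them (adjusted p = 0.000234).

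RAD51AP1, which stimulates strand pairing, had the same range, 0.97 (adjusted p = 0.00129; ENSG00000111247, chromosome 12, 4538798 to 4560047, plus strand). In A549, RAD51AP1 was at 13, 13.3 and 14 FPKM with siC and 10.8, 12.1 and 15.9 FPKM with siI1. In ES2, RAD51AP1 was at 18.3, 18.8 and 20.3 FPKM with siC and 18.9, 20.9 and 20.8 FPKM with siI1. Both pairs overlapped, and in A549 the siI1 libraries spread on either side of the siC libraries. In MV3, RAD51AP1 was at 16.6, 16.9 and 16.1 FPKM with siC and 12.3, 10.4 and 12.5 FPKM with siI1. In PANC1, RAD51AP1 was at 10.9, 10.9 and 9.12 FPKM with siC and 4.0, 5.92 and 6.22 FPKM with siI1. In these lines siI1 lay wholly below siC, with -0.49 (SE 0.074, adjusted p = 0.00355) and -0.90 (SE 0.17, adjusted p = 0.0118). Without PANC1 siC replicate 1 the latter call was lost (adjusted p = 0.0537). PALB2, the bridge between BRCA1 and BRCA2, followed BRCA2 with -0.47 (adjusted p = 0.00349) in MV3, -0.59 (adjusted p = 0.00374) in PANC1, -0.05 in A549 and 0.16 in ES2, neither of the last passing. RAD54B, a relative of RAD54L, fell in MV3, -0.65 (adjusted p = 0.0087). RAD54B shares 66% of its exon bases with FSBP on the same strand, so that its reads are uncertain.

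**Figure D3:**
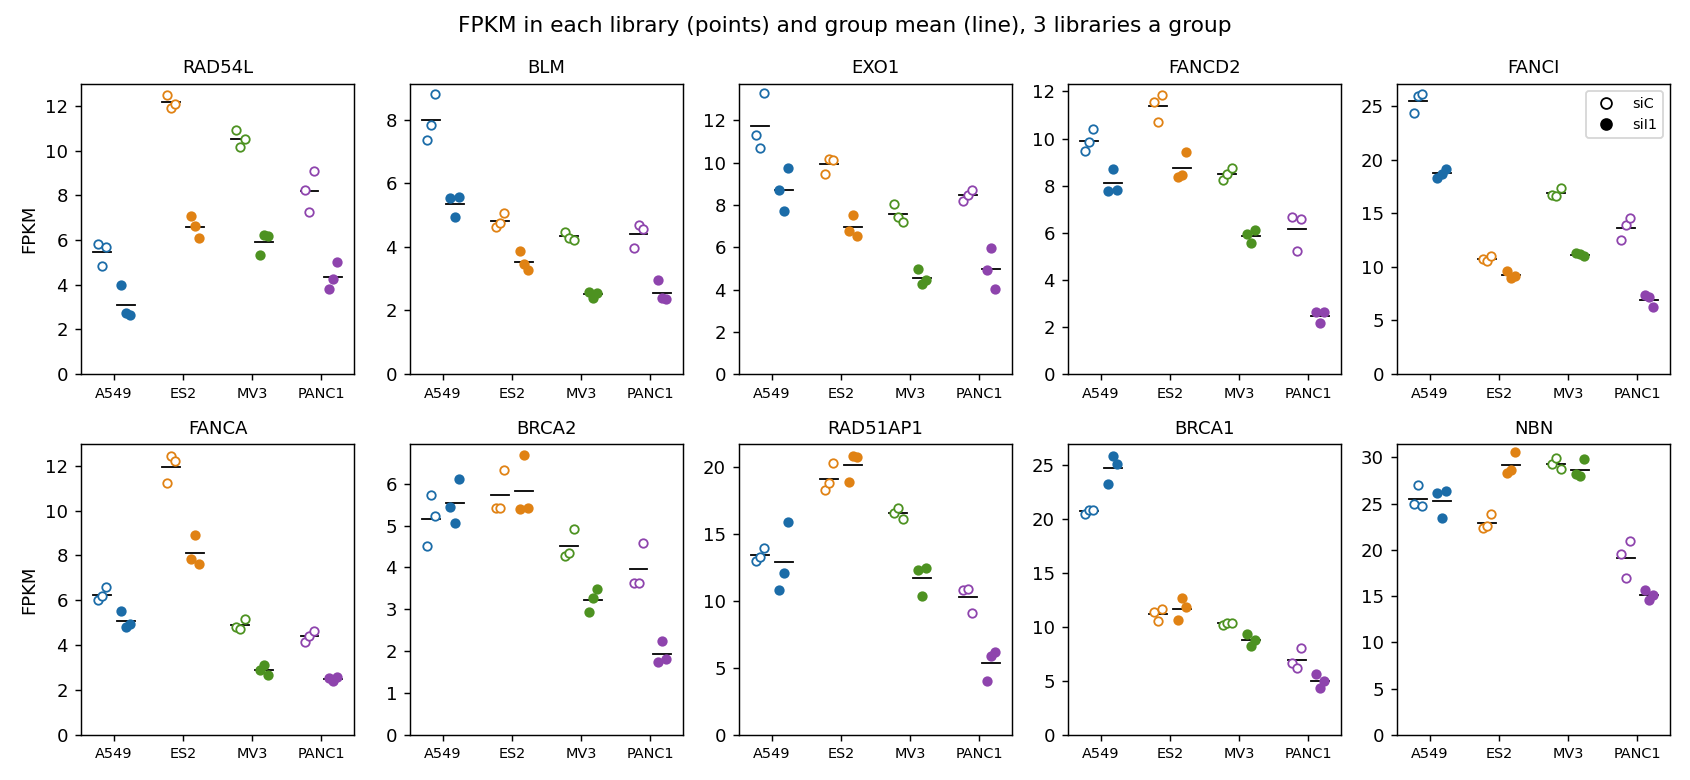
FPKM (y axis, from 0) in each library for 10 repair genes, siC open and siI1 filled, with the group mean as a line, in the 4 cell lines. RAD54L, BLM and FANCI are lower with siI1 in every line, BRCA2 and RAD51AP1 overlap in A549 and ES2, and BRCA1 is higher in A549 but lower in MV3 and PANC1.

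The 5 paralogs form small complexes that support strand pairing, and 3 of them fell on average, beside 28.1% of all genes tested. XRCC2 averaged -0.44 (SE 0.042, adjusted p = 5.53e-08), and changed almost equally in MV3 (-0.75, SE 0.056, adjusted p = 0.000309) and PANC1 (-0.76, SE 0.11, adjusted p = 0.00537). In MV3, XRCC2 was at 9.60, 9.0 and 9.57 FPKM with siC and 5.77, 5.32 and 5.11 FPKM with siI1. In A549 it was at 11.6, 12.9 and 11.5 FPKM with siC and 12.2, 12.1 and 11 FPKM with siI1. The MV3 groups were far apart and those of A549 overlapped, with -0.02 (adjusted p = 0.882) in A549, -0.24 (adjusted p = 0.0991) in ES2 and a difference between lines (adjusted p = 8.37e-05). XRCC3 averaged -0.27 (SE 0.048, adjusted p = 7.91e-05), but 76.7% of its exon bases are shared with KLC1 on the opposite strand, whose changes were -0.30 to 0.13 and passed in no line. RAD51B averaged -0.23 (SE 0.083, adjusted p = 0.0286) and passed in no single line. RAD51D (-0.08) and RAD51C (0.03) did not pass on average. RAD51D was at -0.27 (adjusted p = 0.0306) in MV3, a call lost in all omissions but that of siC replicate 2 (adjusted p = 0.0724 to 0.0935), beside 0.26 (adjusted p = 0.118) in A549. The kit used marks strand, but whether the counting used it is not given in the sources used here.

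FANCD2 and FANCI, the pair that the core complex modifies, fell most in PANC1. FANCD2 averaged -0.57 (SE 0.042, adjusted p = 1.19e-09) (ENSG00000144554, chromosome 3, 10026370 to 10101932, plus strand). In A549, FANCD2 was at 9.48, 9.84 and 10.4 FPKM with siC and 7.79, 8.71 and 7.82 FPKM with siI1. In ES2, FANCD2 was at 11.5, 10.7 and 11.8 FPKM with siC and 8.39, 8.46 and 9.44 FPKM with siI1. The groups were apart in both, though the A549 difference did not pass, -0.27 (adjusted p = 0.0716), whereas voom gave -0.27 (adjusted p = 0.0259). In MV3, FANCD2 was at 8.26, 8.48 and 8.76 FPKM with siC and 5.94, 5.55 and 6.10 FPKM with siI1. In PANC1, FANCD2 was at 6.66, 5.22 and 6.57 FPKM with siC and 2.62, 2.16 and 2.63 FPKM with siI1. No siI1 library of PANC1 reached 3 FPKM. FANCD2 changed by -1.16 (SE 0.12, adjusted p = 0.00216) in PANC1, the lowest of the 30 genes in any line, beside -0.50 (SE 0.050, adjusted p = 0.000739) in MV3 and -0.36 (SE 0.070, adjusted p = 0.0144) in ES2, and differed between lines (range 0.88, adjusted p = 2.92e-05). The ES2 call was lost without siC replicate 1, siI1 replicate 1 or siI1 replicate 2 (adjusted p = 0.0502 to 0.0525).

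FANCI averaged -0.54 (SE 0.029, adjusted p = 1.62e-11) (ENSG00000140525, chromosome 15, 89243945 to 89317261, plus strand). In A549, FANCI was at 24.4, 25.9 and 26.1 FPKM with siC and 18.3, 18.7 and 19.2 FPKM with siI1. In ES2, FANCI was at 10.7, 10.5 and 11 FPKM with siC and 9.59, 8.97 and 9.14 FPKM with siI1. Both lines had siI1 below siC in all libraries, ES2 by the smaller margin. In MV3, FANCI was at 16.7, 16.6 and 17.3 FPKM with siC and 11.3, 11.2 and 11 FPKM with siI1. In PANC1, FANCI was at 12.5, 13.9 and 14.6 FPKM with siC and 7.40, 7.17 and 6.25 FPKM with siI1. The groups stood well apart. FANCI changed by -0.43 (adjusted p = 0.00501) in A549 and -0.21 (adjusted p = 0.0349) in ES2, and by -0.58 (adjusted p = 0.000166) in MV3 and -0.93 (adjusted p = 0.00182) in PANC1, and differed between lines (adjusted p = 1.07e-05). The ES2 call was lost on omission of each of the 6 libraries (adjusted p = 0.0511 to 0.107), and with the same sum of FPKM the ES2 calls of FANCI, FANCD2 and BLM were also lost (adjusted p = 0.253, 0.0931 and 0.0634).

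Of the Fanconi core complex with its ligase, 4 of 7 genes fell on average and none rose, where 28.1% of all genes tested fell and 20.5% rose. FANCA, a scaffold of the core complex, averaged -0.55 (SE 0.036, adjusted p = 2.46e-10) (ENSG00000187741, chromosome 16, 89726683 to 89816977, minus strand). In A549, FANCA was at 5.99, 6.17 and 6.61 FPKM with siC and 5.52, 4.79 and 4.93 FPKM with siI1. In ES2, FANCA was at 11.2, 12.4 and 12.2 FPKM with siC and 7.83, 8.89 and 7.61 FPKM with siI1. The groups did not overlap in either line, but the A549 difference did not pass, -0.28 (adjusted p = 0.111), whereas voom gave -0.30 (adjusted p = 0.0289). In MV3, FANCA was at 4.82, 4.74 and 5.17 FPKM with siC and 2.87, 3.12 and 2.68 FPKM with siI1. In PANC1, FANCA was at 4.14, 4.42 and 4.65 FPKM with siC and 2.52, 2.39 and 2.57 FPKM with siI1. FANCA fell in ES2, -0.54 (adjusted p = 0.00486), MV3, -0.68 (adjusted p = 0.000814), and PANC1, -0.71 (adjusted p = 0.00283), and differed between lines (adjusted p = 0.00609). It shares 19.6% of its exon bases with ZNF276 on the opposite strand, which rose in MV3 (0.27, adjusted p = 0.00903) and passed in no other line.

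FANCG, which binds FANCA, averaged -0.45 (SE 0.043, adjusted p = 5.21e-08) and passed in MV3 (-0.45, adjusted p = 0.000598) and PANC1 (-0.75, adjusted p = 0.00303). Its difference between lines (adjusted p = 0.0143) was lost without PANC1 siC replicate 1 (adjusted p = 0.0504). FANCE, which contacts FANCD2, averaged -0.34 (SE 0.085, adjusted p = 0.00254), with -0.26, -0.35, -0.33 and -0.42 in A549, ES2, MV3 and PANC1. It passed in no single line, and a difference between lines was not detected (adjusted p = 0.949). FANCM, the translocase that brings the complex to DNA, averaged -0.20 (SE 0.054, adjusted p = 0.00455). FANCL, the ubiquitin ligase (0.01), FANCC (0.03) and the adaptor FANCF (0.04) did not pass on average. FANCC was at -0.20 (adjusted p = 0.0316) in MV3, a call lost without siC replicate 1 or 2 or siI1 replicate 1 or 3 (adjusted p = 0.0847 to 0.0949).

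Of the checkpoint kinases, 1 of 4 fell on average, near the 28.1% of all genes, and the median was 0.01. CHEK1, which ATR activates at stalled forks, averaged -0.15 (SE 0.046, adjusted p = 0.0094) and passed in MV3 (-0.29, adjusted p = 0.00732). ATR, which senses single-stranded DNA, was at 0.19, 0.15, -0.04 and -0.45 in A549, ES2, MV3 and PANC1, and passed in PANC1 alone (adjusted p = 0.00595). In PANC1, ATR was at 9.65, 9.20 and 10.3 FPKM with siC and 7.27, 6.80 and 6.84 FPKM with siI1. The groups were apart there, and the effect differed between lines (adjusted p = 1.1e-05). ATM, which senses double-strand breaks, rose in ES2, where it was at 6.42, 6.09 and 6.59 FPKM with siC and 8.36, 8.96 and 8.44 FPKM with siI1. That change was 0.40 (SE 0.061, adjusted p = 0.00577), beside -0.29 (adjusted p = 0.15) in PANC1, and the effect differed between lines (adjusted p = 0.00163). CHEK2, the target of ATM, was at 2.43, 4.25 and 3.41 FPKM with siC and 5.48, 6.16 and 4.91 FPKM with siI1 in A549. All siI1 values there exceeded the siC values, but the change, 0.66 (SE 0.20, adjusted p = 0.0792), did not pass, whereas voom gave 0.76 (adjusted p = 0.000434).

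**Figure D4:**
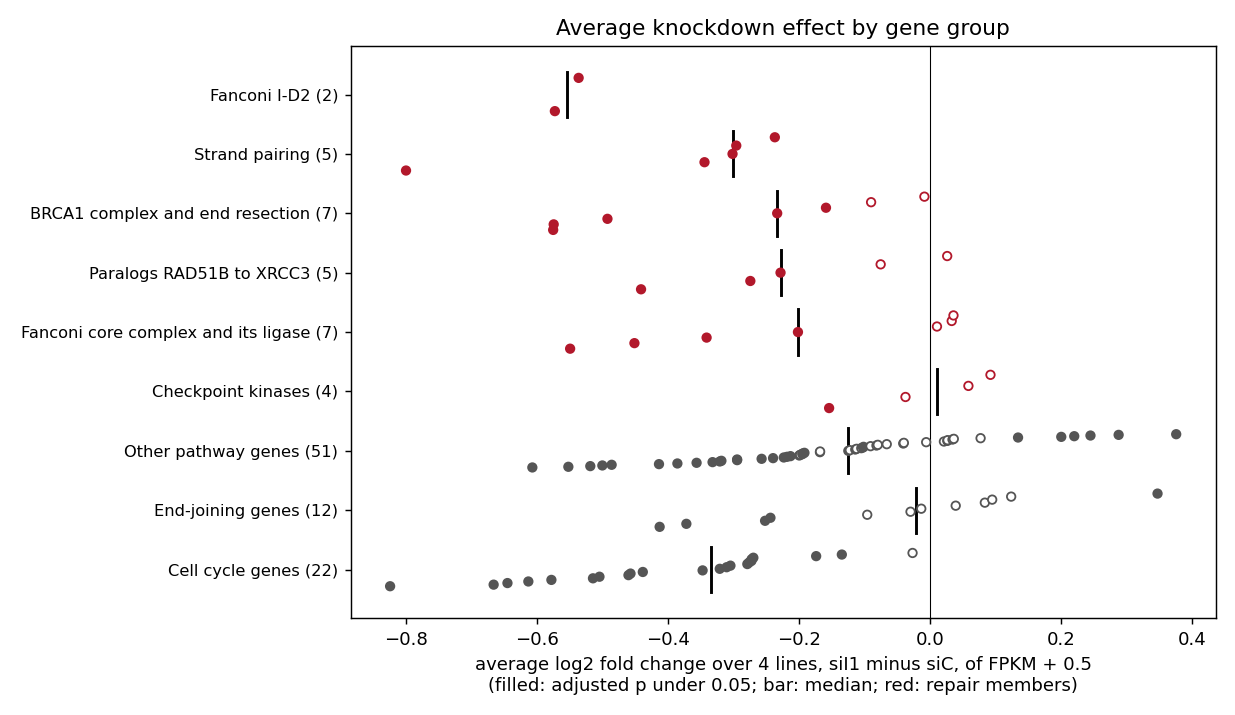
Average log2 fold change over the 4 lines (x axis) for each gene of the 6 role groups (red) and of 3 lists for comparison (grey); filled points have an adjusted p under 0.05, bars are medians, and the number of genes tested is in parentheses. FANCD2 and FANCI share a median of -0.55, the checkpoint kinases lie near 0, and the cell cycle genes have a median of -0.33.

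Of all genes tested, 28.1% fell and 20.5% rose on average, and 45% differed between lines. Among 51 other genes of the pathways that were tested, 26 fell and 6 rose on average, with a median of -0.12, and 31 differed between lines. The lowest were CLSPN, which helps ATR activate CHEK1 (-0.61, adjusted p = 2.58e-06), PSMC3IP, which stimulates strand pairing in meiosis (-0.55, adjusted p = 3.52e-05), and POLQ, the polymerase of theta-mediated end joining (-0.52, adjusted p = 2.73e-07). The highest were SWSAP1, a recombination factor (0.38, adjusted p = 0.000446), FAM175A, the scaffold of the BRCA1-A complex (0.29, adjusted p = 0.000446), and CENPS, which binds FANCM (0.25, adjusted p = 0.00191). Within lines, 1 fell and 2 rose in A549, 9 and 2 in ES2, 29 and 3 in MV3 and 15 and 3 in PANC1. Of all genes tested, 7.83% fell and 5.93% rose in A549, and 13% and 10.5% did in ES2. In MV3 these shares were 19.5% and 16.3%, and in PANC1 13.4% and 11.3%.

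Non-homologous end joining reseals breaks without a template. Of 12 of its genes that were tested, 4 fell and 1 rose on average, with a median of -0.02. The share that fell was near the 28.1% of all genes tested, of which 20.5% rose. XRCC4, a partner of the ligase, averaged -0.41 (adjusted p = 9.72e-05), and the Ku subunits XRCC6 and XRCC5 averaged -0.37 (adjusted p = 2.53e-09) and -0.25 (adjusted p = 3.39e-08). TP53BP1, which opposes resection, averaged 0.35 (adjusted p = 1.85e-09) and was above 0 in all 4 lines (0.24 to 0.47).

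Most cell cycle genes fell too. Of 22, 21 fell on average, with a median of -0.33, and 10, 9, 22 and 19 fell in A549, ES2, MV3 and PANC1, with medians of -0.22, -0.19, -0.53 and -0.58. Of all genes tested, 28.1% fell on average, and 7.83%, 13%, 19.5% and 13.4% fell within the lines in this order. MCM6, a subunit of the replicative helicase, rose in ES2 (0.39, adjusted p = 0.02), and RRM2, a subunit of ribonucleotide reductase, rose in PANC1 (0.31, adjusted p = 0.0343), chosen here after their values were seen as the list's 1 rise in each of these lines. The summed level of the list was 748 to 814 FPKM with siI1 against 873 to 895 with siC in A549, 880 to 888 against 1019 to 1045 in ES2, 646 to 672 against 909 to 946 in MV3, and 566 to 568 against 773 to 870 in PANC1. None of the 22 was at 0. MKI67, a marker of cycling cells, averaged -0.65 (adjusted p = 6.76e-06), with -0.69, -0.60, -0.42 and -0.87 in A549, ES2, MV3 and PANC1. In ES2 the MKI67 groups overlapped and the change did not pass (adjusted p = 0.0751). E2F1 averaged -0.61 (adjusted p = 1.31e-08), with -0.77, -0.36, -0.87 and -0.46. Their part in the change of the repair genes was not tested. Pseudogene copies that could share reads with FANCD2, CHEK2 or RAD51AP1 did not exceed 0.752 FPKM.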

How the data were processed

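RNA was extracted with TRIzol, ribosomal RNA was depleted and stranded libraries were sequenced. Per the labels and methods, the authors clipped reads with cutadapt 1.14, aligned them to hg38 with HISAT2 2.1.0, counted them with featureCounts 1.5.3 and an Ensembl annotation, and normalized within each line by TMM in edgeR 3.30.3. The authors deposited 1 table per line, whose values per library were taken to be FPKM: the unit is not named, and FPKM times gene length, divided by a step fixed within each library, was a whole number of reads, within 0.01, for 100% of values. The deposited log2 fold changes, p-values and FDR of the authors' own comparison were not used.

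Values were analysed as log2(FPKM + 0.5), which understates changes of low genes, for genes that averaged 0.5 FPKM or more. A549 had 18411 such genes, ES2 16920, MV3 16380 and PANC1 15846. Each line was tested on its own with limma 3.58.1 in R 4.3.3 (moderated by intensity trend, two-sided), as the study tested lines separately, without covariates. A fit of all 24 libraries with a mean per group, over 12816 genes that passed in each line, gave the average over the lines and the F test of a difference between lines. P-values were adjusted by Benjamini-Hochberg over all genes tested. Scripts were tested on simulated data in which few genes were changed, all well above the filter, unlike the real data. There, false ones made up 21.5% of the calls within A549, 15.4% within ES2 and 17.3% within PANC1. In the fit of all 24 libraries they made up 7.08%. These shares are larger than the threshold allows, whereas that within MV3, 4.59%, is not. Calls near the threshold within A549, ES2 and PANC1, and to a lesser degree in the fit of all 24 libraries, are thus less firm than their adjusted p.

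The 30 genes and the comparison lists were chosen with earlier results of these data known. Values in every library are given for the 6 genes with the largest average change, the 3 with the largest range over lines among those that differed, and those called in opposite directions, with others where a sentence turned on them. From the lists, up to 3 lowest and 3 highest averages that passed are named, with MKI67 and E2F1. Another gene of the pathway list is not reported here. Replicates of a group differed beyond sampling noise (chi-square per gene 1.54 to 15.1 over 24 pairs), so none was merged. Coordinates and shared exons are from GENCODE 44 (hg38), a newer annotation than the authors'.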

Additional observations from a re-analysis of the deposited data

Results flagged for a closer look

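The effect of the knockdown differed between the 4 lines for 20 of the 30 genes by the interaction test of limma, beside 45% of all genes tested. The adjusted p is given after each name. Among genes whose log2 fold change was below 0 in all lines, these were FANCI (1.07e-05), FANCD2 (2.92e-05), XRCC2 (8.37e-05), BRIP1 (0.00526), FANCA (0.00609), FANCG (0.0143) and BARD1 (0.0154). They include FANCD2, with -0.27 in A549 and -1.16 in PANC1, and XRCC2, with -0.02 and -0.76.

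Genes lower on average with a log2 fold change above 0 in A549, ES2 or both were BRCA2 (0.000234), PALB2 (0.000615), RAD51AP1 (0.00129), RBBP8 (0.000481), RAD54B (0.0244) and FANCM (0.0408). In the order A549, ES2, MV3 and PANC1, BRCA2 was at 0.10, 0.02, -0.43 and -0.87, and PALB2 was at -0.05, 0.16, -0.47 and -0.59.

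Genes not called on average that differed between lines were ATR (1.1e-05), NBN (9.33e-05), BRCA1 (0.000854), RAD51D (0.00153), ATM (0.00163), CHEK2 (0.0104) and FANCC (0.0377). In the same order, ATR was at 0.19, 0.15, -0.04 and -0.45, and CHEK2 was at 0.66 in A549 and between -0.15 and 0.0075 in the other lines. The differences of FANCC, FANCM and RAD54B passed the threshold less firmly, and were lost in 9, 12 and 6 of 24 omissions of 1 library. The FANCG difference was lost without PANC1 siC replicate 1, and that of BARD1 with the same sum of FPKM times length (adjusted p = 0.0552). PANC1 was harvested at a later time than the other lines, and line and time cannot be told apart.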

How the results depend on the processing

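The cause of these changes was not tested. With the same sum of FPKM, chosen after seeing the data, FANCC and FANCL in PANC1 turned from 0.01 and 0.08 to -0.64 and -0.64 (adjusted p = 0.0199 and 0.0172), the medians were -1.06 in PANC1, 0.066 in ES2 and -0.41 on average (all genes tested: -0.68, 0.04 and -0.18), 28 genes were lower in PANC1 and 3 in ES2, and 0 were higher in A549. With the same sum of FPKM times length, the medians were -0.35 in MV3 and -0.58 in PANC1 (all genes: 0.06 and -0.18), and the share of lower among all called genes was 44% in MV3, in place of 54.5%, and 76.9% in PANC1, in place of 54.3%. With a pseudocount of 0.1 the MV3 median was -0.42, and with 1 the MV3 and PANC1 medians were -0.38 and -0.37. With limma voom, 10 genes were lower and 4 higher in A549, 1 was higher in MV3 and 1 on average, and the MV3 median was -0.43. With a further minimum of 0.5 for the size of the log2 fold change, 2 genes were lower in A549 and ES2 each and 0 higher in both, 9 were lower in MV3 and 6 on average.

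Leaving out 1 library gave 1 to 3 lower and 0 to 1 higher genes in A549 (median -0.11 to 0.0125), 3 to 4 lower in ES2 and 2 to 2 higher (-0.05 to 0.03), 19 to 21 lower and 0 to 1 higher in MV3 (-0.42 to -0.37), 12 to 18 lower and 0 to 0 higher in PANC1 (-0.50 to -0.36), 19 to 22 lower and 0 to 0 higher on average (-0.26 to -0.22), and 17 to 22 that differed between lines. The lowest count in A549, 1, was without siI1 replicate 2, and that in ES2, 3, was without siI1 replicate 2.

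Replicate numbers did not pair the samples: deviations of same-numbered libraries correlated by -0.056 to 0.071 over 12 pairs, and 3 of 12 siC libraries matched best with their own number. With the replicate number as a block, 1 gene was lower and 0 were higher in A549, and the other counts stayed within 1.5 times. The block ended the calls of BRCA1 in A549, MV3 and PANC1 (adjusted p = 0.108, 0.0515 and 0.0576). It also ended those of RAD54L, BLM and BRIP1 in A549 (0.0665, 0.0633 and 0.0763) and of BLM and FANCI in ES2 (0.0756 and 0.107). RAD54L, BLM and FANCI were then no longer called in every line. In MV3 the calls of FANCC and RAD51D were lost (0.0872 and 0.0814), and in PANC1 that of RBBP8 (0.0938), while CHEK1 passed there (0.0471).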
